A study of Mus musculus with 9 samples.

Results

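The miR-130/miR-301 family of the mouse comprises the mature guides mmu-miR-130a-3p, mmu-miR-130b-3p, mmu-miR-301a-3p and mmu-miR-301b-3p, given below without the species prefix. They form 1 seed family. Its members were taken by name from the table of mature miRNAs, where they were 4 of 984 rows, and each of the 4 passed the filter on low values. Small RNA was sequenced at embryonic day 9.5 from mouse embryos that differ in which parts of the miR-17~92 cluster they keep: 8 genotypes gave 1 library each, and 1 further library of undetermined reads has no genotype in the labels. The mutant libraries were ΔmiR-92, ΔmiR-19, ΔmiR-18 and ΔmiR-17, each lacking 1 seed family of the cluster, ΔmiR-17,18 and ΔmiR-17,18,92, which lack several, and the full deletion of the cluster, and they were compared with 1 wild-type library that keeps the whole cluster. In ΔmiR-17,18,92 the miR-19 guides are what is left of the cluster. All embryos were labelled female, and in all of them heart and tail bud were first removed by microdissection, so that the RNA is that of the remaining embryo in Trizol. Whether a library holds 1 embryo or several, and the strain background, are not stated in the labels. None of the deletions touches a locus of the miR-130/miR-301 family.

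A miRNA recognises its targets mainly by pairing of its seed, bases 2 to 8 from the 5′ end, so members of a seed family are predicted to share many targets. The miR-130/miR-301 guides are known as regulators of growth factor signalling, vascular cells and adipocyte differentiation, and PPARγ is a studied target of miR-130 in human preadipocytes. miR-301a is produced from an intron of Ska2, a gene of the spindle and kinetochore, and miR-130b and miR-301b lie next to each other in 1 locus. Each hairpin yields a guide from its 3p arm and a partner strand from its 5p arm.

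The mature sequences show what the family shares and where its members part. They are RefSeq sequences of build GRCm38.p6, written 5′ to 3′ with bases 2 to 8 in capitals.
miR-130a-3p: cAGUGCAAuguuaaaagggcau
miR-130b-3p: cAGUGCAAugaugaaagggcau
miR-301a-3p: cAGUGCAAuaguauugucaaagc
The guides miR-130a-3p and miR-130b-3p were identical in their first 10 bases and differed at 2 positions, U11A and A13G, counted from 1 at the 5′ end with the base of miR-130a-3p first. miR-301a-3p shared its first 9 bases with both and had another 3′ part. miR-301b-3p has no mature entry among these RefSeq sequences and is named only.

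The hairpins place the guide on the 3p arm of each precursor. Here the capitals mark the letters AGUGCAA.
miR-130a hairpin: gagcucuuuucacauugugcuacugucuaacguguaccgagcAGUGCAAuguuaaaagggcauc
miR-130b hairpin: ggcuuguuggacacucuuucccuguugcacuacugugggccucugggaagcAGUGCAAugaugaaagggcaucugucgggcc
miR-301a hairpin: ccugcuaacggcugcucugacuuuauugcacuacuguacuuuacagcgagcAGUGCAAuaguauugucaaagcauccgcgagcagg
miR-301b hairpin: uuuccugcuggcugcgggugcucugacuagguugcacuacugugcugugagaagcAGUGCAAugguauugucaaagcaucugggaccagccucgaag
The stretch of the miR-301b hairpin closest to miR-301a-3p matched it at 22 of 23 bases, with A10G as the substitution, counted from the 5′ end of miR-301a-3p. The labels and processing notes do not say how reads with mismatches or with several matches were assigned, so the split of reads between miR-301a-3p and miR-301b-3p is uncertain.

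The coordinates are those of GRCm38, whereas the submitters' processing notes name mm9 for the files. The miR-130a hairpin lies on chromosome 2 from 84741115 to 84741178 on the minus strand and overlaps no gene of the GENCODE annotation besides its own. The miR-301a hairpin lies on chromosome 11 from 87113004 to 87113089 on the plus strand, in an intron of Ska2 on the same strand. The miR-130b hairpin at chr16:17124061-17124142 and the miR-301b hairpin at chr16:17124400-17124496, both on the minus strand, are 257 bases apart and lie in 2610318N02Rik on the same strand, without overlap of an exon.

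Among 1679 mature mouse miRNAs of the RefSeq table, 7 hold the family seed at bases 2 to 8, which is 0.417% of them. Besides the 3 members printed above these were miR-130c, miR-721, miR-6341 and miR-6389, which have no row among the counted miRNAs and are not analysed here. miR-301b-3p is not among the 1679, since it has no mature entry there, although its hairpin holds the letters AGUGCAA. Further guides hold part of the seed at a place shifted by 1 base and are shown for comparison.
miR-19a-3p: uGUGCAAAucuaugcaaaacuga
miR-19b-3p: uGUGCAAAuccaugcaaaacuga
miR-148a-3p: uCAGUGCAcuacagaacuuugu
miR-148b-3p: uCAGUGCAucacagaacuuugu
miR-152-3p: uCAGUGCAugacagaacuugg
The miR-19 guides, which the cluster itself encodes, hold the 6 letters GUGCAA at bases 2 to 7, and the miR-130/miR-301 guides hold them at bases 3 to 8. These 6 letters lie within bases 2 to 8 in 9 of the 1679 mature miRNAs, or 0.536%. The miR-148/miR-152 guides hold the 7 letters CAGUGCA at bases 2 to 8, where the miR-130/miR-301 guides hold them at bases 1 to 7. Only the given strand of each mature miRNA was searched.

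The deposited values were reads divided by a size factor, and whole reads were recovered from them. The 7 mutant libraries held 6563143 to 18480034 miRNA reads, against 7070621 in the wild-type library. Levels are given as normalised RPM (reads per 1000000), in which 1 constant scales the deposited values so that the 8 genotype libraries average 1000000, and 1 read was worth 0.0624 to 0.157 of this unit. Each genotype has 1 library, so a difference between 2 libraries has no replicate check. Intervals cover counting error only, and reads without molecular identifiers are not independent molecules. The deletions were seen in the counts: the highest level of a guide in the libraries that lack its gene was 1.04% of the lowest level in those that keep it for miR-17-5p, 2.11% for miR-18a-5p and 0.480% for miR-19a-3p, and 0.251% for the partner strand miR-92a-1-5p. In bulk RNA, fewer cells of a type and less RNA per cell cannot be told apart.

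miR-130a-3p was the most abundant member in every library. From the lowest mutant library to the highest it stood at 11220 normalised RPM for ΔmiR-17, 12641 for ΔmiR-17,18,92, 12777 for ΔmiR-19, 13596 for ΔmiR-18, 14046 for ΔmiR-92, 15752 for ΔmiR-17,18 and 16458 for the full deletion, against 8741 for wild type. The wild-type library was the lowest and the full deletion the highest, 1.88-fold apart. With totals outside the cluster as the scaling, ΔmiR-17,18 was highest. The 7 mutant libraries averaged 13784 ± 1827 (SD over 7 genotypes, which are not replicates). By its mean it ranked 18 of the 984 rows.

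miR-301a-3p varied most. In the same low-to-high order, its level was 3458 normalised RPM for ΔmiR-17, 3755 for the full deletion, 4065 for ΔmiR-19, 4537 for ΔmiR-92, 4683 for ΔmiR-18, 5306 for ΔmiR-17,18,92 and 7506 for ΔmiR-17,18, against 2703 for wild type. Wild type was again below all 7 mutant libraries, and ΔmiR-17,18 stood well above the next highest, ΔmiR-17,18,92. The mutant libraries averaged 4758 ± 1359 (SD over 7 genotypes).

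miR-301b-3p was the least abundant member in every library. It was read at 915 normalised RPM for ΔmiR-17, 952 for the full deletion, 957 for ΔmiR-92, 1038 for ΔmiR-19, 1222 for ΔmiR-18, 1295 for ΔmiR-17,18,92 and 1450 for ΔmiR-17,18, against 668 for wild type. As for miR-301a-3p, ΔmiR-17,18 was highest, ΔmiR-17,18,92 next and wild type lowest, although with plain totals ΔmiR-17,18,92 was highest for miR-301b-3p. The counting intervals of ΔmiR-92 and of the full deletion overlapped. The mutant libraries averaged 1118 ± 205 (SD over 7 genotypes).

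miR-130b-3p was not lowest in wild type, except with plain totals as the scaling. It had 3809 normalised RPM for ΔmiR-17, 3810 for ΔmiR-17,18,92, 4198 for ΔmiR-18, 4406 for ΔmiR-92, 4606 for the full deletion, 5392 for ΔmiR-17,18 and 5651 for ΔmiR-19, against 3887 for wild type. It was above wild type in 5 of the 7 mutant libraries, and in 4 to 7 of them under other scalings. Between ΔmiR-17 and ΔmiR-17,18,92, and between ΔmiR-17,18,92 and wild type, the counting intervals overlapped. Its highest level was 1.48-fold its lowest, the narrowest range in the family, and the mutant libraries averaged 4553 ± 726 (SD over 7 genotypes).

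**Figure D1:**
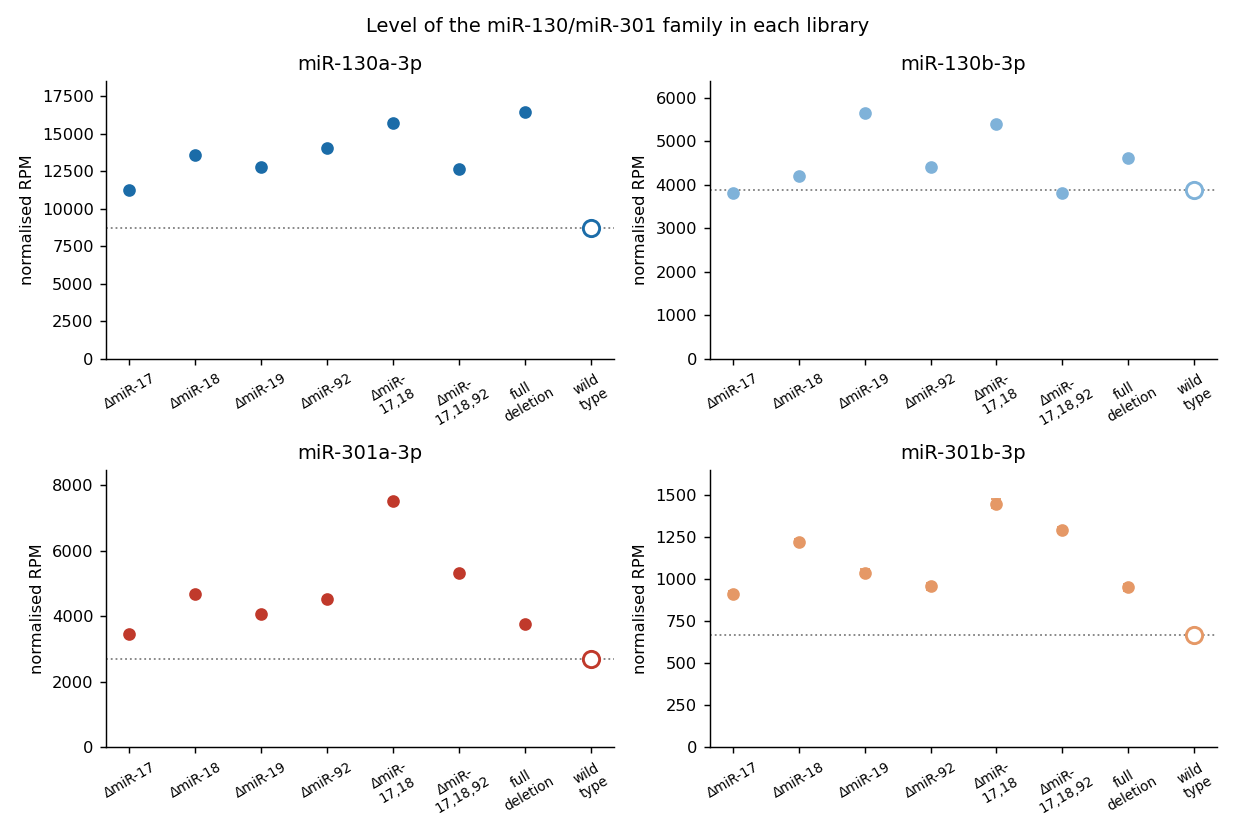
Level of each member in normalised RPM (linear axes that start at 0) in the 7 mutant libraries and, as an open circle with a dotted line, in the wild-type library; bars are 95% Poisson counting intervals, mostly smaller than the points. miR-130a-3p, miR-301a-3p and miR-301b-3p lie lowest in wild type, whereas miR-130b-3p lies above wild type in 5 of 7 mutant libraries (4 to 7 under other scalings).

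The low place of the wild-type library can be set against other miRNAs. Among the 319 miRNAs outside the cluster that averaged 100 or more normalised RPM, wild type was the lowest of the 8 libraries in 44, or 13.8%, and 3 of the 4 members were among these. For these 3 members wild type was also lowest with the libraries scaled in each of 4 other ways. The ΔmiR-92 library, with 6563143 reads against 7070621 in wild type, stood above it for all 4 members and for 50.8% of the 319 miRNAs. The part of read depth in these levels was not tested. ΔmiR-17,18 was the highest of the 8 libraries for 2 members, beside 14.4% of the 319 miRNAs.

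The spread over the 8 libraries, as the SD of log2 levels, was 0.29 for miR-130a-3p, 0.22 for miR-130b-3p, 0.44 for miR-301a-3p and 0.35 for miR-301b-3p. Its median over the 319 miRNAs was 0.41. Of these miRNAs, 8.15% varied less than miR-130b-3p and 54.9% less than miR-301a-3p.

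Summed over its members, the family held 19403 normalised RPM for ΔmiR-17, 23051 for ΔmiR-17,18,92, 23531 for ΔmiR-19, 23699 for ΔmiR-18, 23946 for ΔmiR-92, 25770 for the full deletion and 30100 for ΔmiR-17,18, against 15998 for wild type. All 7 mutant libraries were above wild type, by 1.21-fold in ΔmiR-17 and by 1.88-fold in ΔmiR-17,18. As a share of all miRNA reads the family took 2.02% to 2.84% in the mutant libraries and 1.44% in wild type. All miRNA reads include those of the cluster, so this share also moves with the deletions themselves. Outside the cluster lay 5017720 of 7070621 reads in wild type and 8902634 of 9030190 in the full deletion.

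Against wild type, 2 of the 4 members passed 2-fold in ΔmiR-17,18, both of them upward, where 11.6% of the 319 miRNAs did so upward. Past 2-fold either way in that library were 24.1% of the 319 miRNAs (77), the largest share of any mutant library. miR-301a-3p was 2.78-fold higher there (95% counting interval 2.73 to 2.82), and 12 of the 319 miRNAs had a higher ratio. miR-301b-3p was 2.17-fold higher (2.10 to 2.25), and 27 miRNAs had a higher ratio. The other 2 members were below the limit, at 1.80-fold for miR-130a-3p and 1.39-fold for miR-130b-3p.

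In the other 6 mutant libraries 0 of 4 members passed 2-fold in either direction. The share of the 319 miRNAs past 2-fold either way was 6.9% for ΔmiR-17, 9.72% for ΔmiR-19, 14.1% for ΔmiR-92, 14.7% for ΔmiR-18, 15.4% for ΔmiR-17,18,92 and 16.6% for the full deletion. Just short of the limit stood miR-301a-3p at 1.96-fold and miR-301b-3p at 1.94-fold in ΔmiR-17,18,92, and miR-130a-3p at 1.88-fold in the full deletion. With plain totals in place of the deposited size factors, the full deletion had 1 member past 2-fold, beside 18.2% of the 319 miRNAs at that scaling, and ΔmiR-17,18,92 had 2, beside 21.6%.

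In ΔmiR-19 the ratios of the members to wild type lay close together. They ran from 1.45-fold for miR-130b-3p to 1.55-fold for miR-301b-3p. In the full deletion they lay further apart, at 1.18-fold for miR-130b-3p, 1.39-fold for miR-301a-3p, 1.43-fold for miR-301b-3p and 1.88-fold for miR-130a-3p. ΔmiR-17 gave the lowest ratios, from 0.980-fold for miR-130b-3p to 1.37-fold for miR-301b-3p.

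The median log2 ratio of the 4 members to wild type was 0.36 for ΔmiR-17, 0.49 for the full deletion, 0.57 for ΔmiR-19, 0.60 for ΔmiR-92, 0.72 for ΔmiR-18, 0.74 for ΔmiR-17,18,92 and 0.98 for ΔmiR-17,18. Over the 319 miRNAs the median lay between -0.03 and 0.10 in these libraries. All these comparisons share the 1 wild-type library, so they are not independent of each other.

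**Figure D2:**
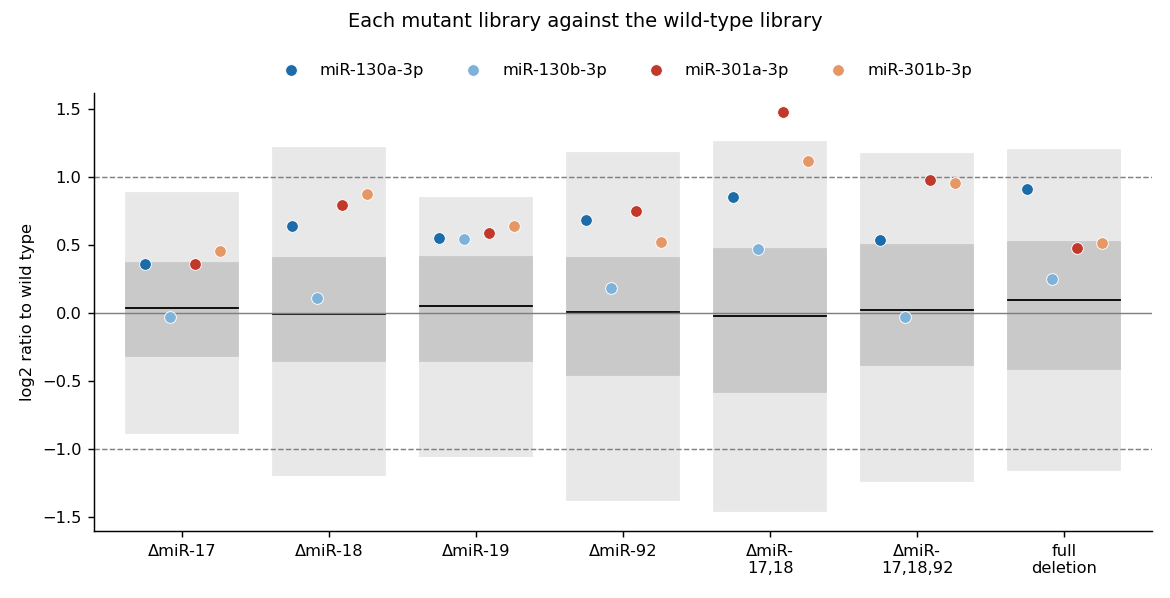
Log2 ratio of each mutant library to the wild-type library for the 4 members (points), with the 319 miRNAs outside the cluster as the range from the 5th to the 95th percentile (light), the middle quartiles (dark) and the median (black line); dashed lines mark 2-fold. miR-301a-3p and miR-301b-3p in ΔmiR-17,18 are the 2 points beyond the dashed lines at the deposited scaling, and miR-301a-3p there is the one point above the light band.

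Pairs of mutant libraries that differ by 1 deleted family use no wild-type library. ΔmiR-17,18,92 was set against ΔmiR-17,18 for the loss of miR-92a-1: its ratios were 0.802 for miR-130a-3p, 0.707 for miR-130b-3p, 0.707 for miR-301a-3p and 0.893 for miR-301b-3p. Of the members 0 of 4 were higher in ΔmiR-17,18,92, beside 51.7% of the 319 miRNAs, and 0 of 4 passed 2-fold either way, beside 12.5%. With plain totals the ratio of miR-301b-3p was 1.11. The full deletion was set against ΔmiR-17,18,92 for the loss of the cluster's miR-19 genes. Its ratios were 1.30 for miR-130a-3p, 1.21 for miR-130b-3p, 0.708 for miR-301a-3p and 0.735 for miR-301b-3p. Here the miR-130 guides were higher and the miR-301 guides lower in the full deletion, so 2 of 4 members were higher, beside 54.5% of the 319 miRNAs. Past 2-fold were 0 of 4, beside 13.2%. With totals outside the cluster the ratio of miR-130b-3p was 1.003. ΔmiR-17,18 also differs by 1 deleted family from ΔmiR-17 and from ΔmiR-18. No ratios or shares of the 319 miRNAs were taken for these pairs. At the deposited scaling each member was higher in ΔmiR-17,18. miR-301a-3p stood at 7506 normalised RPM there, against 3458 in ΔmiR-17 and 4683 in ΔmiR-18. For miR-130b-3p the levels were 5392, 3809 and 4198 in the same order.

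A model with 1 term for each deleted family was fitted to the 8 libraries with limma, on log2(normalised RPM + 1) of 537 miRNAs outside the cluster and those within it, with Benjamini-Hochberg adjustment. It assumes that the effects of the deletions add up on the log2 scale, and it leaves 3 residual degrees of freedom. For each of the 4 terms, 0 of 4 members passed an adjusted p of 0.05, as did 0 of the 537 miRNAs outside the cluster (0.0%). At an unadjusted p under 0.05 there were 0 members, beside 1.3% of the 537 miRNAs (7) for the miR-92 term, 2.05% (11) for miR-17, 2.98% (16) for miR-19 and 3.54% (19) for miR-18. On the recovered reads, edgeR also called 0 of the 537 for each term, and DESeq2 called 1 (0.186%) for the miR-19 term and 0 for the others, no member among them.

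The member estimates with the greatest size were those of the miR-301 guides for the miR-18 term. miR-301a-3p averaged 5312 normalised RPM in the 4 libraries without miR-18a and 3691 in the 4 that keep it. Its estimate was 0.49 ± 0.37 log2 (SE; 95% interval -0.36 to 1.34), with a limma adjusted p of 0.988. miR-301b-3p averaged 1230 and 895 in the same groups, and its estimate was 0.46 ± 0.34 log2 (-0.32 to 1.24). The ΔmiR-17,18 library, the highest for both, is among the libraries without miR-18a. Left out, it gave an estimate of 0.29 for miR-301a-3p and 0.38 for miR-301b-3p. Without the ΔmiR-17 library the estimate for miR-301a-3p was 0.21, and it was 0.80 without ΔmiR-92 and 0.81 without ΔmiR-18.

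For the miR-19 term, miR-130b-3p averaged 5128 normalised RPM in the 2 libraries without the cluster's miR-19 genes and 4250 in the 6 others. Its estimate was 0.30 ± 0.29 log2 (SE; 95% interval -0.36 to 0.96). For the miR-17 and miR-92 terms the member estimates lay between -0.14 and 0.12 log2. With 1 library left out in turn they ran from -0.27 (miR-130b-3p without ΔmiR-18) to 0.37 (miR-301a-3p without ΔmiR-17) for the miR-17 term, and from -0.65 (miR-301a-3p without ΔmiR-92) to 0.25 (miR-130a-3p without ΔmiR-17,18) for the miR-92 term. For the miR-19 term the range was -0.81 (miR-301a-3p without ΔmiR-19) to 0.47 (miR-130b-3p without ΔmiR-92). Every interval of the fit to all 8 libraries included 0, and those of the miR-301 guides for the miR-18 term also included a difference of 1 log2. The interval of miR-301a-3p for the miR-19 term, -1.04 to 0.66, included a difference of 1 log2 downward.

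**Figure D3:**
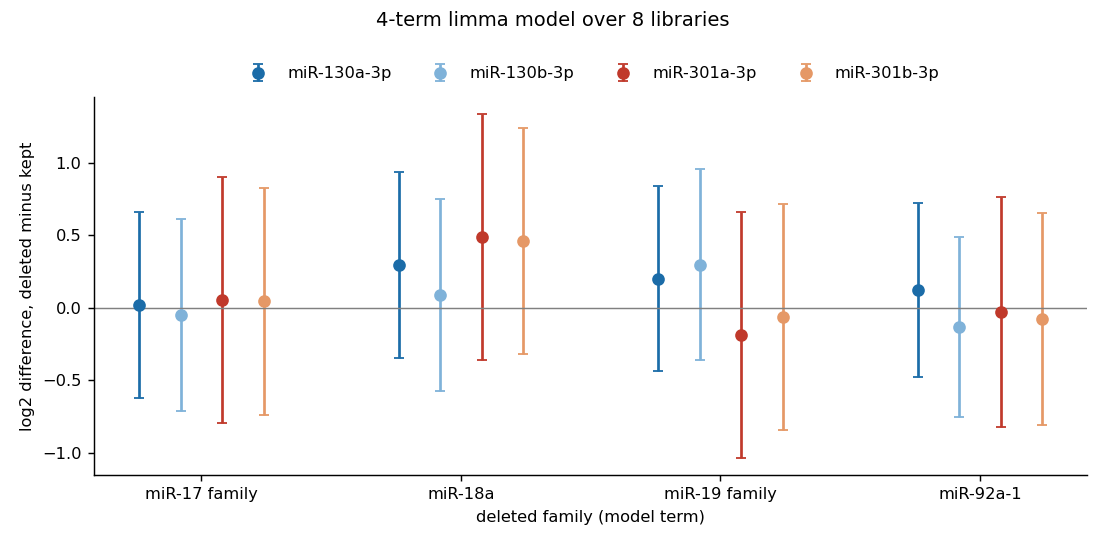
Estimated log2 difference, deleted minus kept, of each member for each of the 4 deletion terms of the limma model over 8 libraries; bars are 95% intervals. All 16 intervals include 0, and miR-301a-3p for miR-18a, at 0.49, is the highest estimate.

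The make-up of the family does not depend on how libraries are scaled. miR-130a-3p supplied 52.3% to 63.9% of the family's reads over the 8 libraries and miR-130b-3p 16.5% to 24.3%. miR-301a-3p supplied 14.6% to 24.9%, and miR-301b-3p 3.69% to 5.62%. miR-301a-3p had more reads than miR-130b-3p in ΔmiR-18, ΔmiR-92, ΔmiR-17,18 and ΔmiR-17,18,92, and fewer in the other 4 libraries. Of the reads of these 2 members together it took 58.2% in both ΔmiR-17,18 and ΔmiR-17,18,92, against 41.0% in wild type.

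The near-identical guides miR-301a-3p and miR-301b-3p did not keep one proportion either. miR-301b-3p took 16.2% of their joint reads in ΔmiR-17,18, 17.4% for ΔmiR-92, 19.6% for ΔmiR-17,18,92, 20.2% for the full deletion, 20.3% for ΔmiR-19, 20.7% for ΔmiR-18 and 20.9% for ΔmiR-17, against 19.8% for wild type. Their loci are on different chromosomes. As stated above, the split of reads between these guides is uncertain, and its part in this proportion was not tested.

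In their counted reads, miR-130b and miR-301b, whose hairpins are neighbours, did not keep one proportion. The uncertain split of reads between miR-301b-3p and miR-301a-3p bears on the 3p shares, and its part in them was not tested. Of the joint 3p reads of miR-130b and miR-301b, miR-301b-3p took 15.5% for ΔmiR-19, 17.1% for the full deletion, 17.8% for ΔmiR-92, 19.4% for ΔmiR-17, 21.2% for ΔmiR-17,18, 22.6% for ΔmiR-18 and 25.4% for ΔmiR-17,18,92, against 14.7% for wild type. Wild type was lowest and ΔmiR-17,18,92 highest, and their 95% binomial intervals did not overlap. Of their joint 5p reads, miR-301b-5p took 5.20% in ΔmiR-17,18,92 (4.68% to 5.76%), against 7.11% in wild type (6.32% to 7.96%). The 2 arms of the same pair of hairpins thus ordered wild type and ΔmiR-17,18,92 in opposite ways. The 5p share was also below wild type in ΔmiR-19 (4.90%) and ΔmiR-17 (5.60%). Like the 3p share, it was above wild type in ΔmiR-17,18 (7.79%), ΔmiR-92 (8.40%), the full deletion (9.58%) and ΔmiR-18 (10.3%). The 5p intervals of ΔmiR-17,18 and ΔmiR-92 overlapped that of wild type.

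The partner strands of the 5p arms are shown with bases 2 to 8 in capitals, since they differ between hairpins in the seed.
miR-130a-5p: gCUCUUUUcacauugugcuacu
miR-130b-5p: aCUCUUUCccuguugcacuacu
miR-301a-5p: gCUCUGACuuuauugcacuacu
miR-301b-5p: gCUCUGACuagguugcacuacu
miR-301a-5p and miR-301b-5p share bases 2 to 8 and differ at 3 positions, U10A, U11G and A12G, with the base of miR-301a-5p first. The other partner strands have seeds of their own.

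The 3p arm was the main product of every hairpin in every library, to different degrees. The 5p arm made up 0.0458% to 0.175% of the reads of the miR-130a hairpin over the 8 libraries and 0.170% to 1.31% of those of miR-301a. It made up 1.83% to 6.10% of the reads of miR-301b and 8.04% to 14.5% of those of miR-130b.

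miR-301a-5p had the widest range of any arm of the family. It was read at 7.73 normalised RPM for ΔmiR-92, 17.3 for ΔmiR-17,18, 18.4 for the full deletion, 26.4 for ΔmiR-19, 31.0 for ΔmiR-17, 31.6 for ΔmiR-18 and 70.4 for ΔmiR-17,18,92, against 28.0 for wild type. The highest and the lowest library differed 9.11-fold, and rested on 1016 and 54 reads. The share of the 5p arm in the miR-301a hairpin was 1.31% for ΔmiR-17,18,92 (95% binomial interval 1.23% to 1.39%), 0.230% for ΔmiR-17,18 (0.195% to 0.270%) and 0.170% for ΔmiR-92 (0.128% to 0.222%), against 1.03% for wild type (0.882% to 1.19%).

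Arms of other hairpins moved otherwise. The 5p share of the miR-301b hairpin was 1.83% in ΔmiR-17,18,92, the lowest, and 6.10% in wild type, the highest, so the 2 miR-301 hairpins stood at opposite ends in ΔmiR-17,18,92. miR-130b-5p lay between 427 and 648 normalised RPM in the mutant libraries and at 567 in wild type. miR-301b-5p lay between 24.1 and 54.0 and at 43.4 in wild type, and miR-130a-5p, on 63 to 281 reads a library, between 7.21 and 19.6 and at 11.1 in wild type. In the limma model 0 of these 4 partner strands passed an adjusted p of 0.05 for any term.

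**Figure D4:**
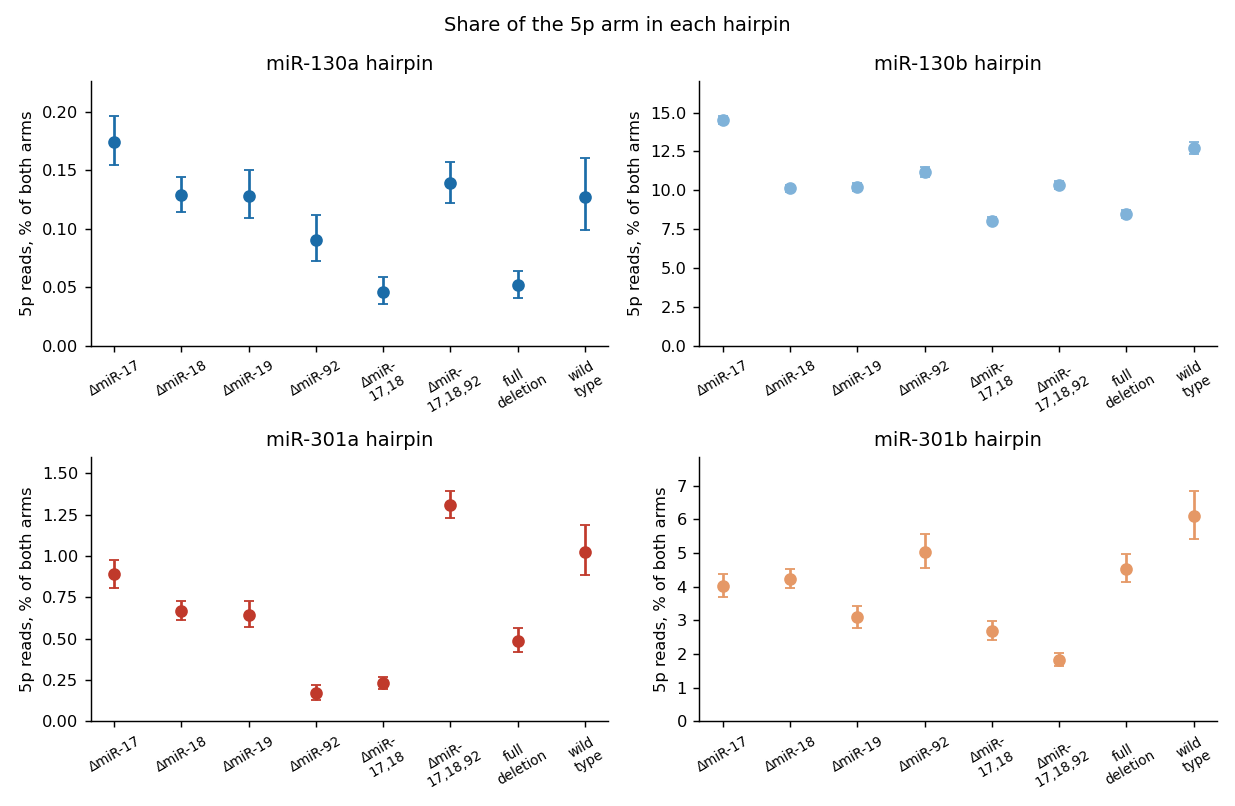
Share of the 5p arm in the reads of each hairpin, in percent on linear axes that start at 0 and differ between panels, in the 7 mutant libraries and wild type; bars are 95% binomial intervals. In ΔmiR-17,18,92 the share is highest for the miR-301a hairpin, at 1.31%, and lowest for the miR-301b hairpin, at 1.83%.

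Since the miR-19 guides share 6 letters with the family, the 2 groups were also summed. Family and miR-19 guides together held 25087 normalised RPM for ΔmiR-19, 28627 for the full deletion, 47794 for ΔmiR-17, 93429 for ΔmiR-17,18,92, 103485 for ΔmiR-92, 194905 for ΔmiR-17,18 and 262333 for ΔmiR-18, against 52516 for wild type. The miR-130/miR-301 family supplied 90.0% of this sum in the full deletion and 93.8% in ΔmiR-19, against 30.5% in wild type. Its share was lowest in ΔmiR-18, at 9.03%, where the miR-19 guides were highest. The family's own level differed 1.88-fold between its highest and lowest library, whereas the miR-19 guides summed to 1556 normalised RPM in ΔmiR-19 and to 238634 in ΔmiR-18.

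**Figure D5:**
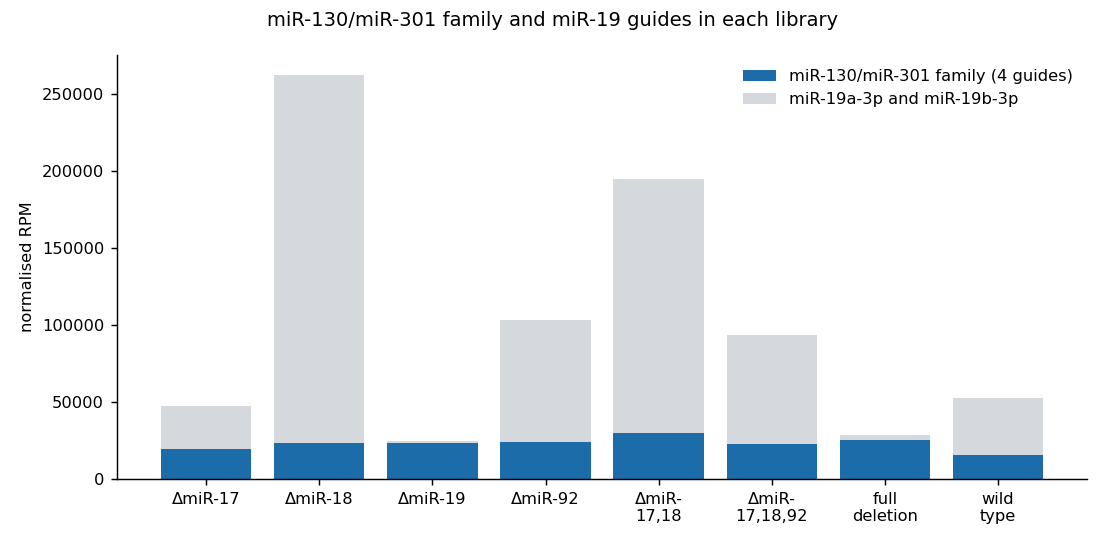
Summed level of the 4 miR-130/miR-301 guides (blue) and of miR-19a-3p and miR-19b-3p (grey), in normalised RPM, stacked from 0 for the 7 mutant libraries and wild type. The family makes up nearly the whole column in the full deletion and ΔmiR-19, 90.0% and 93.8%, and the smallest share in ΔmiR-18, 9.03%.

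Among the relatives with the seed shifted the other way, wild type was the lowest of the 8 libraries for 0 of 3, beside 13.8% of the 319 miRNAs. For miR-148a-3p it was second lowest. miR-148a-3p lay between 6990 and 15507 normalised RPM in the mutant libraries and at 10373 in wild type. miR-148b-3p lay between 1899 and 9166 and at 6770 in wild type. miR-152-3p lay between 2332 and 4551 and at 3690 in wild type. For these 3 guides, 6, 4 and 4 of the 7 mutant libraries were above wild type, and 0 passed an adjusted p of 0.05 in limma for any term.

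The miRNAs whose pattern over the 8 libraries was nearest to that of each member were found among 328 miRNAs, by the root mean square difference of log2 levels centred on their own mean. For miR-301a-3p the nearest was miR-301b-3p, at 0.15, followed by miR-127-5p at 0.20 and miR-107-3p at 0.26. For miR-301b-3p the nearest were miR-301a-3p at 0.15, miR-34c-5p at 0.17 and miR-127-5p at 0.18. Its chromosomal neighbour miR-130b-3p came at place 25, at 0.31.

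For miR-130a-3p the nearest were miR-26a-5p at 0.13, miR-16-5p at 0.15 and miR-411-5p at 0.18, and its sequence relative miR-130b-3p came at place 24. For miR-130b-3p they were miR-10b-5p at 0.11, miR-210-3p at 0.13 and miR-350-3p at 0.14. The miR-301 guides were thus nearest to each other and the miR-130 guides were nearest to miRNAs outside the family. These distances rest on 8 libraries and a common scaling and carry no test. The split of reads between the near-identical miR-301 guides is uncertain, and its part in their likeness was not tested.

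Markers of cell types that the embryo can hold were read in the same libraries, and their part in the levels of the family was not tested. The 2 endothelial miRNAs, miR-126-3p and miR-126-5p, summed to 7371 to 17559 normalised RPM in the mutant libraries and to 10721 in wild type, with 5 of 7 mutant libraries above wild type. Their sum was highest in ΔmiR-17,18, as was the family's, and lowest in ΔmiR-17,18,92. The 6 striated muscle miRNAs, led by miR-1a-3p and miR-133a-3p, summed to 2215 to 6110 and to 3061 in wild type, with 5 of 7 above and ΔmiR-17,18 the highest. The 5 blood miRNAs, led by miR-486-5p and miR-451, summed to 1096 to 2013 and to 1636 in wild type, with 3 of 7 above. The 4 neural miRNAs, led by miR-9-5p and miR-124-3p, summed to 1862 to 5217 and to 3084 in wild type, with 4 of 7 above. None of the 17 markers was at 0 in all libraries.

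Of the 17 markers, 3 were lowest in wild type, and they were named, as are those set beside them, after their values had been seen. miR-208a-3p, a miRNA of the cardiac myosin genes, lay between 24.7 and 176 normalised RPM in the mutant libraries and at 6.27 in wild type. miR-499-5p, encoded in another myosin gene, lay between 18.6 and 60.3 and at 10.3 in wild type. miR-9-3p lay between 57.6 and 198 and at 49.5 in wild type. Other markers of these lists did not follow them. miR-208b-3p, of another cardiac myosin gene, lay between 8.89 and 28.4 and at 24.6 in wild type, with 1 of 7 mutant libraries above it. miR-133a-3p was above wild type in 3 of 7 mutant libraries, miR-1a-3p in 4 of 7, miR-9-5p in 4 of 7, and the blood marker miR-486-5p in 1 of 7.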

How the data were processed

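Per the labels' protocols, embryos were lysed in Trizol and libraries made by a published small RNA protocol. Per the submitters' processing notes, the tools were featureCounts (Subread 1.4.2), STAR 2.2.0 and SAMtools 0.1.19, and the build was mm9. The authors deposited 1 signal value per mature miRNA and library, which was a read count divided by a library's size factor: 100% of values were whole multiples of 1 read within 0.001 reads. Of 1046 rows, those of 1 accession that differed by 10% or less were merged, which left 984. No member had repeated rows. Signal values were scaled to a mean of 1000000 reads. The design assumed normalised values, and limma 3.58.1 (trend, log2 of the level + 1, mean of 10 or more) was kept as the test, with edgeR 4.0.16 and DESeq2 1.42.0 on recovered reads as alternatives, run in R 4.3.3. Fold changes used miRNAs averaging 100 or more. Counting intervals are exact Poisson and Clopper-Pearson, from scipy 1.17.1 at 95%. The limma step was checked on simulated data. Named are the members, their partner strands, seed relatives, the leading 2 of each marker list and the 3 nearest patterns. Members, lists and tests were chosen with earlier results of these data known. The sample of undetermined reads entered no comparison.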

Additional observations from a re-analysis of the deposited data

Results flagged for a closer look

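In the library of undetermined reads, which has no genotype, miR-301a-3p stood at 3720 and miR-301b-3p at 855 normalised RPM, both above the 2703 and 668 of the wild-type library. The other members were below wild type there, miR-130a-3p at 7848 against 8741 and miR-130b-3p at 3160 against 3887, as was the family sum, at 15583 against 15998. These values lie in data that no comparison used.

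The loss of miR-92a-1 went with opposite signs on 2 backgrounds, which flagged each member and the family sum; the difference between the backgrounds was not tested. ΔmiR-92 against wild type gave a log2 ratio of 0.68 for miR-130a-3p, 0.18 for miR-130b-3p, 0.75 for miR-301a-3p, 0.52 for miR-301b-3p and 0.58 for the sum. ΔmiR-17,18,92 against ΔmiR-17,18 gave -0.32, -0.50, -0.50, -0.16 and -0.38 in the same order. The sign for miR-301b-3p turned with plain totals. Of the libraries set as references here, wild type was the lowest of all for the family sum and ΔmiR-17,18 the highest.

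The loss of the cluster's miR-19 genes likewise went with opposite signs for the miR-301 guides, and this difference was not tested. ΔmiR-19 against wild type gave 0.59 for miR-301a-3p and 0.64 for miR-301b-3p. The full deletion against ΔmiR-17,18,92 gave -0.50 and -0.44. At the deposited scaling wild type was the lowest library for both guides, and only ΔmiR-17,18 stood above ΔmiR-17,18,92. Each contrast sets 1 library against 1.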

How the results depend on the processing

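The family sum was above wild type in all 7 mutant libraries under each of the 5 scalings. Its highest library over its lowest was 1.88-fold, and 1.96 with plain totals, 1.79 with totals outside the cluster, 1.77 with TMM and 1.92 with median-ratio factors of the 8 libraries. With plain totals the count of members past 2-fold became 1 for the full deletion, beside 18.2% of the 319 miRNAs past 2-fold at that scaling, and 2 for ΔmiR-17,18,92, beside 21.6%. With a limit of 1.5-fold it became 1 for the full deletion (39.2% of the 319 miRNAs), 2 for ΔmiR-19 (29.5%), 2 for ΔmiR-92 (37.3%), 2 for ΔmiR-17,18,92 (34.5%), 3 for ΔmiR-18 (32.6%) and 3 for ΔmiR-17,18 (46.1%). Plain totals moved the median of all miRNAs by up to 0.37 log2, in ΔmiR-17,18,92, and totals outside the cluster by -0.25 in the full deletion. Over the other scalings, 180 ratios of members and sum, to wild type and between mutant libraries, changed by factors of 0.830 to 1.30, and 6 crossed 1. Over all alternatives of the model, 288 member estimates gave 0 at an adjusted p under 0.05 and 0 unadjusted. The lowest adjusted p, from limma, was 0.533 for the miR-18 term of miR-301a-3p without ΔmiR-92, where the alternatives ran up to 0.9996 and the estimates from 0.21 to 0.81 log2. For the ratios between mutant libraries, rescaling was tried after seeing the data. Plain totals turned the ratio of miR-301b-3p in ΔmiR-17,18,92 against ΔmiR-17,18 to 1.11, and totals outside the cluster turned that of the family sum in the full deletion against ΔmiR-17,18,92 to 0.928. No paired analysis was possible because each genotype has 1 library. One library per genotype limits the comparisons. Each member rested on 4265 or more reads in every genotype library, which bears on counting error only. The part of read depth in the levels was not tested.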
